A study of Mus musculus with 8 samples.

Results

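Binding of the transcription factor E2F3 in wild-type mouse embryonic fibroblasts was set against the histone mark H3K27me3 in the same kind of cells, by chromatin immunoprecipitation and sequencing. The genomic regions described are those listed as a peak for E2F3, for H3K27me3 or for both, after peaks that shared at least 1 bp were merged. There were 24105 such regions, beside 27092 regions in the whole series, which also holds HELLS and E2f3-null cells. The groups used were wild-type cells with the E2F3 antibody, wild-type cells with the H3K27me3 antibody, wild-type cells with the HELLS antibody, E2f3-/- cells with the antibodies against E2F3, H3K27me3 and HELLS, and IgG as background, whose reads cannot be assigned to a genotype. All were fibroblasts at E13.5, grown in serum, and each group was 1 library. The labels do not say whether libraries came from separate cultures. Differences are thus between single libraries, and none was given a p-value. All intervals are 95% intervals for counting error alone. In such bulk samples, fewer cells with a site bound and less signal per cell cannot be told apart. Positions are on the mouse assembly mm9, and no annotation of that assembly was used, so regions are given by position and genes are not named. For the same reason, the labelled cell type was not checked against its markers.

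E2F3 is a member of the E2F family of DNA-binding factors, which act with the retinoblastoma proteins at promoters of genes needed for DNA replication and cell division. H3K27me3 is trimethylation of lysine 27 of histone H3. It is written by the Polycomb repressive complex PRC2 and is known for long stretches of silent chromatin over developmental genes, which in fibroblasts include genes of other lineages. E2F sites are best known at active, open promoters, so a site with the factor and the mark is not the usual case. HELLS is a chromatin remodeller of the SNF2 family.

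The E2F3, H3K27me3 and IgG libraries held 4775822, 5640555 and 7219419 distinct reads. The part lying outside every peak region gave a background of 2.29, 2.56 and 3.76 reads per kb, and densities below are given as multiples of these backgrounds. Ratios over IgG were scaled by the same background reads. The authors listed 8889 E2F3 peaks and 17064 H3K27me3 peaks in wild-type cells. An E2F3 peak is called marked where it shares at least 1 bp with an H3K27me3 peak, and unmarked otherwise. IgG reads were themselves dense at E2F3 sites, so IgG is given beside each value.

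A minority of E2F3 peaks carried the mark. Of the 8889 E2F3 peaks, 1832 were marked (20.6%, 19.8 to 21.5), and 1752 had their summit inside an H3K27me3 peak. In the other direction, 1785 of the 17064 H3K27me3 peaks overlapped an E2F3 peak (10.5%, 10.0 to 10.9). H3K27me3 peaks covered 0.756% of the effective genome of 1.87 Gb. They held 124 E2F3 summits per Mb (118 to 130), against 3.85 per Mb (3.76 to 3.94) in the rest of that genome. After merging, 1769 regions had a peak of both kinds (7.34% of the 24105), 7057 had E2F3 alone and 15279 had H3K27me3 alone. These classes are fixed by the peak lists, so their reads are a description. When both lists were limited to scores of 100 or more, the share of marked E2F3 peaks was 11.1%.

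The 3 classes of regions differed in how the libraries filled them. Regions with both peaks had a median of 40 E2F3 reads, 76 H3K27me3 reads and 20 IgG reads, over a median length of 1302 bp. Regions with E2F3 alone had medians of 44, 10 and 13 reads over 677 bp, and those with H3K27me3 alone 3, 16 and 4 reads over 553 bp. Summed over each class, E2F3 was 3.39 times IgG (3.35 to 3.43) in regions with both, 5.85 times (5.81 to 5.89) in those with E2F3 alone and 1.26 times (1.25 to 1.27) in those with H3K27me3 alone. H3K27me3 was 8.24 times IgG (8.15 to 8.33), 1.17 times (1.16 to 1.18) and 8.65 times (8.60 to 8.71) in the same 3 classes. The closeness of the first and last of these came from mixed lengths. H3K27me3 over IgG was 4.27 (3.99 to 4.57) in H3K27me3 peaks of up to 600 bp with an E2F3 peak and 6.82 (6.72 to 6.91) in those without. It was 6.09 (5.99 to 6.2) and 7.66 (7.58 to 7.74) at 601 to 1500 bp, and 10.4 (10.3 to 10.6) and 11.2 (11.0 to 11.3) above 1500 bp. IgG was denser in the peaks with E2F3, at 3.84 against 2.31 times background over all lengths, and its part in this was not tested.

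H3K27me3 was densest at the E2F3 summit of marked peaks and declined on either side. Marked peaks overlap an H3K27me3 peak by definition, so a high density near the summit and a fall beyond follow in part from the class. Within 100 bp of the 1832 marked summits H3K27me3 density was 45.1 times background (44.7 to 45.5). It was 33.3 times at 100 to 250 bp, 22.8 times at 250 to 500 bp, 12.9 times at 500 to 1000 bp, 6.53 times at 1 to 2 kb, 3.53 times at 2 to 5 kb and 2.61 times at 5 to 10 kb. IgG density in the same bands went through 5.41, 4.37, 3.26, 2.18, 1.47, 1.16 and 1.11 times background. At sites chosen in this way, reads of the mark spread further than those of the factor. E2F3 density was 43.7 times background within 100 bp and 1.85 times at 1 to 2 kb.

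No gap in the mark was seen over the factor in the sum of marked peaks. An E2F3 peak wholly within a gap between H3K27me3 peaks would count as unmarked, so the class limits this reading. H3K27me3 density within 100 bp of the summit was 4.39 times (4.34 to 4.44) that in the flanks from 500 to 1500 bp. The same ratio was 2.86 (2.79 to 2.94) for IgG and 15.2 (15 to 15.5) for E2F3. Relative to IgG the mark was 8.34 times (8.14 to 8.55) within 100 bp, 5.92 times (5.81 to 6.03) at 500 to 1000 bp and 2.35 times (2.33 to 2.37) at 5 to 10 kb. At the 250 summits that lay over 2 kb inside a domain of joined peaks the central excess was still present, at 3.34 (3.26 to 3.42) for H3K27me3 and 2.36 (2.20 to 2.53) for IgG. A central rise was therefore shared with IgG in each of these sets, and its part in that of H3K27me3 was not tested.

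At unmarked peaks the H3K27me3 library also rose at the E2F3 summit, and it followed IgG closely. Its density within 100 bp of the 7057 unmarked summits was 6.48 times background (6.40 to 6.56), and that of IgG was 5.75 times (5.68 to 5.81). The ratio of H3K27me3 to IgG was 1.13 (1.11 to 1.15) there, 0.978 (0.965 to 0.991) at 500 to 1000 bp and 1.00 (0.997 to 1.01) at 2 to 5 kb. Within 500 bp, H3K27me3 was 7.57 times IgG (7.47 to 7.66) at marked summits, against 1.12 times (1.11 to 1.13) at unmarked ones. When libraries were scaled by all distinct reads, the value at unmarked summits was 0.976, so no excess or deficit can be read from it. The H3K27me3 library of E2f3-/- cells had 19.5 times background within 100 bp of the marked summits, and 1.78 times at the unmarked ones.

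**Figure D1:**
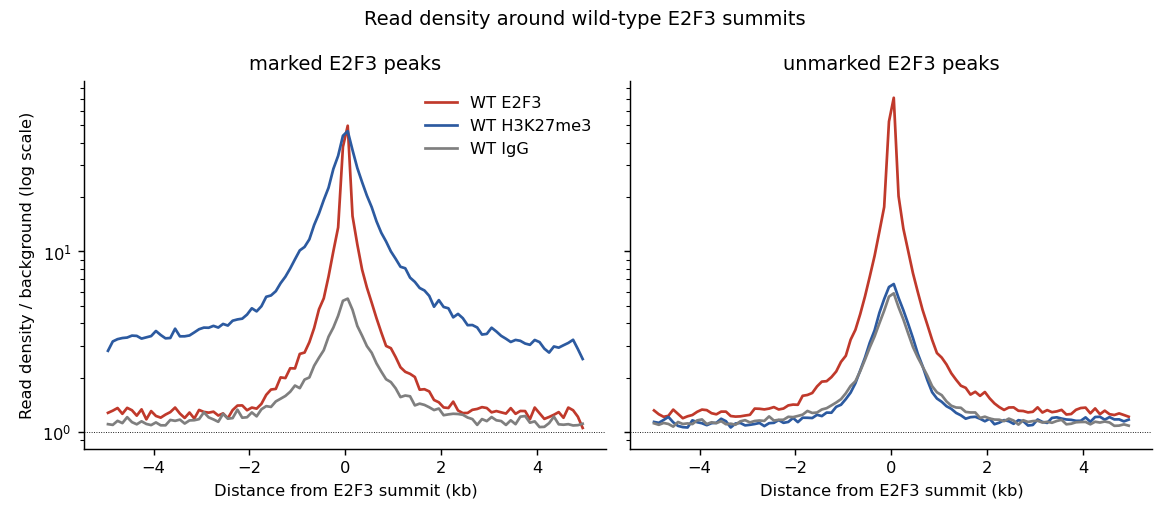
Read density (multiples of each library's background, log scale) against distance from the wild-type E2F3 summit in kb, in bins of 100 bp, for marked peaks on the left and unmarked peaks on the right. H3K27me3 reaches 45.1 times background within 100 bp of marked summits and stays above IgG to the edge of the plot, while at unmarked summits its line lies on that of IgG.

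The mark at E2F3 summits was also measured without the peak lists. A window of 1 kb was called where H3K27me3 was at least 2-fold over IgG and the interval of the ratio excluded 1. Of the 8889 windows at E2F3 summits 2209 were called (24.9%, 24.0 to 25.8), against 2.47% of the 2270228 genome tiles of 1 kb with at least 1 read. At 1.5-fold the tiles gave 2.48%. The call needs reads, and E2F3 summits are rich in IgG reads. Among windows with 0 to 4 IgG reads 21.3% of summits and 1.95% of tiles were called, and with 5 to 9 28.4% and 3.22%. Among windows with 10 to 19 IgG reads 26.5% of summits (25.2 to 27.8) and 14.3% of tiles (14 to 14.7) were called. Among those with 20 or more the summits had 20.4% (18.9 to 22.1) and the tiles 24.1% (22.7 to 25.5). Tiles were not cleared of E2F3 sites, and E2F3 itself was called in 63.8% of these deepest tiles. They are thus no baseline free of E2F3, and no conclusion is drawn from that class. Of the marked summits 1730 were called (94.4%), and of the unmarked ones 479 (6.79%). These classes come from the H3K27me3 peak list of the same reads, so this split is not independent of the lists. In the other direction E2F3 was called over IgG at 705 of the 15279 summits of H3K27me3 peaks without an E2F3 peak (4.61%, 4.29 to 4.96), against 1.30% of tiles. This comparison was not matched for IgG depth. E2F3 was called in 1.00% of tiles with 0 to 4 IgG reads and 0.669% with 5 to 9. It was called in 15.4% with 10 to 19 and 63.8% with 20 or more, so no excess can be read from it.

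E2F3 binding was weaker where the mark was present. Marked peaks had a median of 25 E2F3 reads within 250 bp of the summit (quartiles 17 and 37), and unmarked peaks 34 (quartiles 22 and 52). The median of IgG reads was 9 in both. The 2 classes overlapped widely, from 6 to 187 reads in marked and from 6 to 243 in unmarked peaks. Summed, E2F3 was 5.36 times IgG (5.26 to 5.45) at marked and 6.91 times (6.85 to 6.96) at unmarked summits, so the marked value was 0.776 of the unmarked one (0.761 to 0.791). The authors' score, which is 10 times the negative log10 of the peak's p-value, had a median of 96.8 in marked and 142 in unmarked peaks. Peak length had medians of 632 bp in marked and 677 bp in unmarked peaks.

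The difference in strength was seen at each level of IgG. With E2F3 peaks split into 5 equal classes by IgG reads, the marked value over the unmarked one lay between 0.688 and 0.806. In the class with most IgG reads the medians were 38 E2F3 reads in marked and 46 in unmarked peaks, and in the class with fewest 15 and 16. Marked peaks made up 20.3% of the class with fewest IgG reads, 24.7% of the next and 16.8% of the class with most.

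Marked peaks were most frequent at low E2F3 scores. In 10 equal classes of score it was 30.3% (27.3 to 33.4) in the lowest, 23.1% (20.3 to 26.0) in the fifth and 7.31% (5.69 to 9.23) in the highest. The order was broken by the fourth class, at 28.2%. The level of the mark went the same way among the marked peaks. H3K27me3 was 9.11 times IgG (8.79 to 9.44) at marked peaks of the lowest class, 7.74 times (7.45 to 8.03) in the fifth and 4.07 times (3.79 to 4.37) in the highest. The median of H3K27me3 reads was 62 in the lowest class and 35 in the highest, with 13 and 15 IgG reads. At unmarked peaks H3K27me3 over IgG stayed between 1.07 and 1.19 in all 10 classes.

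**Figure D2:**
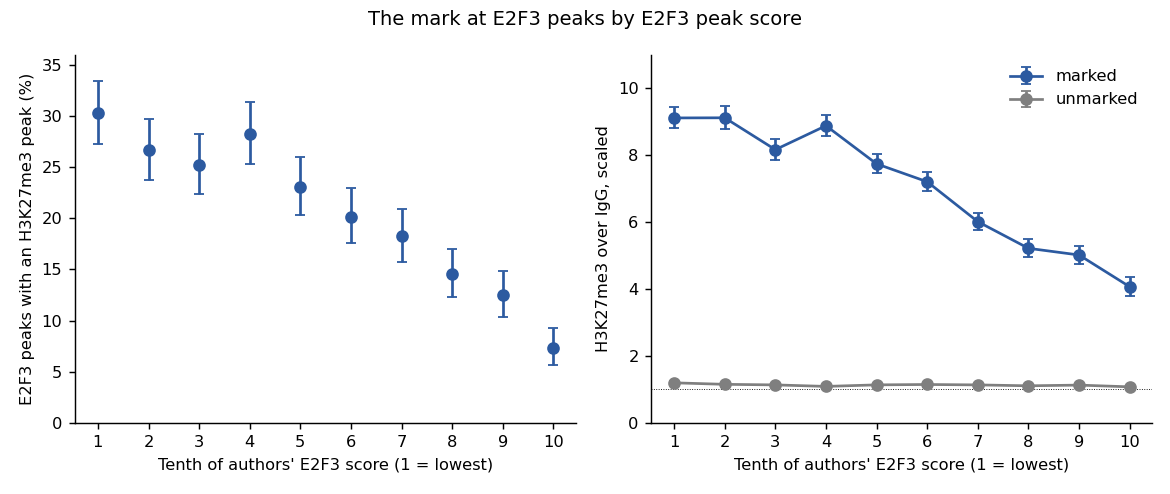
Left, share of E2F3 peaks with an H3K27me3 peak (percent) and right, H3K27me3 over IgG within 500 bp of the summit (scaled ratio) for marked and unmarked peaks, in 10 equal classes of the authors' E2F3 score. Bars are 95% intervals for counting error. The share drops to 7.31% in the highest class, against 30.3% in the lowest.

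The same held when marked peaks were ordered by the mark. From the lowest to the highest of 5 equal classes of H3K27me3 over IgG, the median E2F3 score was 132, 114, 102, 88.8 and 81.6. E2F3 over IgG was 5.76 (5.56 to 5.98) in the lowest and 4.74 (4.54 to 4.96) in the highest class. The 3 classes between had 5.53, 5.64 and 4.93, and both ratios share the IgG reads. Across the 24105 regions the Spearman correlation of E2F3 and H3K27me3 density was -0.32, which follows in part from how regions were listed. Across the 1832 marked summits it was 0.11 for read counts, while E2F3 and IgG counts had 0.65. Regions share the same libraries and are not independent samples.

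**Figure D3:**
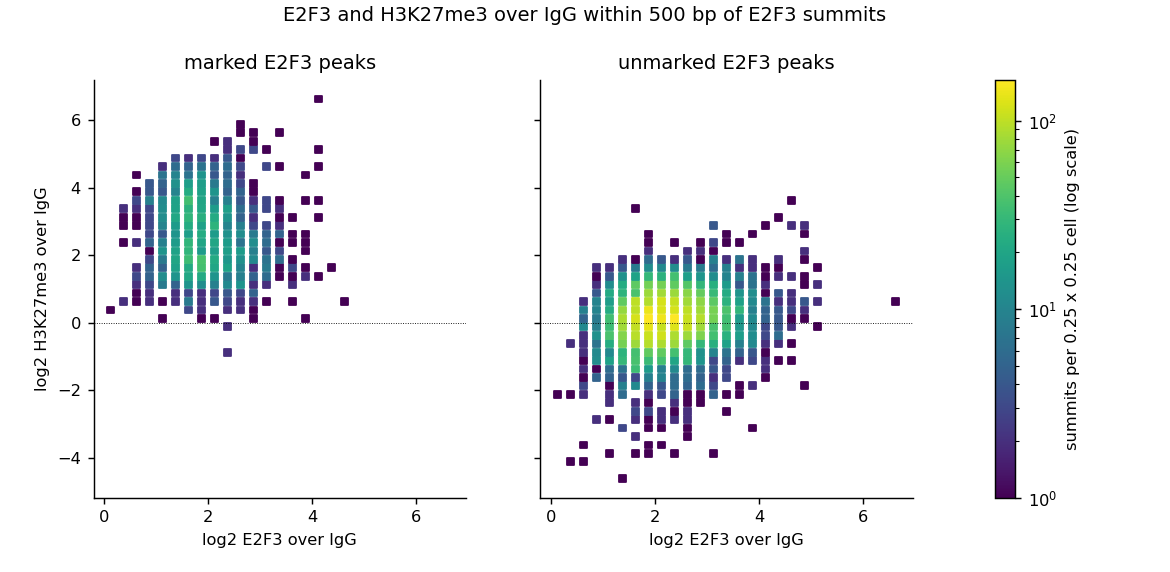
log2 ratio of H3K27me3 to IgG against log2 ratio of E2F3 to IgG within 500 bp of E2F3 summits, for the 1832 marked peaks on the left and the 7057 unmarked peaks on the right, with colour for the number of summits per cell (log scale). Marked peaks spread upward over a wide range of the mark at modest E2F3, and unmarked peaks gather around 0 on the H3K27me3 axis and reach further right.

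The strongest marked E2F3 peaks carried less of the mark than marked peaks in sum. The highest score, 1466, belonged to a peak on chromosome 7 from 56136082 to 56137584, with 187 E2F3, 20 H3K27me3 and 18 IgG reads. There E2F3 was 17.1 times IgG (10.5 to 29.5), and H3K27me3 was 1.64 times (0.822 to 3.28), an interval that holds 1. The summit of this peak lay 622 bp outside the nearest domain.

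The next was on chromosome 4 from 88940226 to 88941669, with 229 E2F3, 34 H3K27me3 and 26 IgG reads. Its summit was 232 bp inside a domain of 878 bp, and H3K27me3 was 1.93 times IgG (1.12 to 3.34). The other three were on chromosome 16 from 30008668 to 30009428 (118, 12 and 11 reads), on chromosome 19 from 56471316 to 56472051 (149, 24 and 16 reads) and on chromosome 14 from 115439675 to 115441539 (222, 66 and 30 reads). H3K27me3 was 1.61, 2.21 and 3.24 times IgG at these. The H3K27me3 peaks behind these 5 marked peaks had scores between 50.6 and 87.0, where the list starts at 50. At the 5 unmarked peaks of highest score, H3K27me3 was between 0.295 and 1.4 times IgG, and all 5 intervals held 1.

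The strongest H3K27me3 peaks with an E2F3 summit showed the opposite balance, which follows in part from ranking by the other signal. Reads here were counted over the whole H3K27me3 peak, and those above over the shorter E2F3 peak. The 2 groups are thus a description and not a like comparison. The highest H3K27me3 score, 3230, lay on chromosome 2 from 146909293 to 146911610, with 51 E2F3, 513 H3K27me3 and 38 IgG reads. H3K27me3 was 19.9 times IgG (14.3 to 28.4) and E2F3 2.21 times (1.42 to 3.45). The E2F3 peak inside it had a score of 74.4.

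On chromosome 6 from 52263131 to 52267758 there were 41 E2F3, 497 H3K27me3 and 59 IgG reads. E2F3 over the whole of this H3K27me3 peak was 1.14 times IgG (0.748 to 1.73), although an E2F3 summit with a score of 82.4 lay in it. The other three were on chromosome 6 from 23197373 to 23200671 (30, 340 and 22 reads), on chromosome 12 from 56699527 to 56702043 (57, 435 and 36 reads) and on chromosome 7 from 53650904 to 53653993 (65, 468 and 41 reads). All 5 E2F3 peaks had scores between 59.9 and 82.4, below the median of 96.8 of marked peaks.

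E2F3 summits were also found deep inside long domains. A domain is a run of H3K27me3 peaks with no gap over 5 kb. The longest with an E2F3 summit was on chromosome 2 from 74485980 to 74554766, 68787 bp long, with 479 E2F3, 2754 H3K27me3 and 467 IgG reads, and it held 6 E2F3 summits, the most of any domain. Over its whole length E2F3 was 1.69 times IgG (1.48 to 1.92).

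At single E2F3 peaks in this domain E2F3 over IgG was higher, which follows in part from their choice as peaks. The summit farthest inside any domain lay 34137 bp from the edge of this one, in a peak from 74519904 to 74520273 with 26 E2F3, 86 H3K27me3 and 3 IgG reads. A neighbouring peak from 74520347 to 74521470 had 31, 209 and 18 reads, and another from 74505754 to 74506828 had 49, 195 and 16. At the neighbouring peak E2F3 was 2.83 times IgG (1.54 to 5.38), an interval that holds the 1.69 of the whole domain. These 3 peaks of the same domain share its mark and are not separate cases of depth inside a domain. The next summits lay on chromosome 2 from 105516249 to 105516776, 16690 bp from the edge with 39, 119 and 15 reads, and on chromosome 14 from 63874330 to 63874978, 16344 bp from the edge with 24, 63 and 12 reads.

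The other long domains held fewer summits. The domain on chromosome 6 from 52153383 to 52216647 held 5 E2F3 summits, and its E2F3 was 1.46 times IgG (1.28 to 1.66). The domain on chromosome 11 from 97392726 to 97440782 held 2 (1.54 times, 1.32 to 1.80). On chromosome 4 a domain from 148225773 to 148280708 and another from 151487874 to 151536026 held 1 each, and the intervals of E2F3 over IgG held 1 in both (1.18 and 1.06 times).

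**Figure D4:**
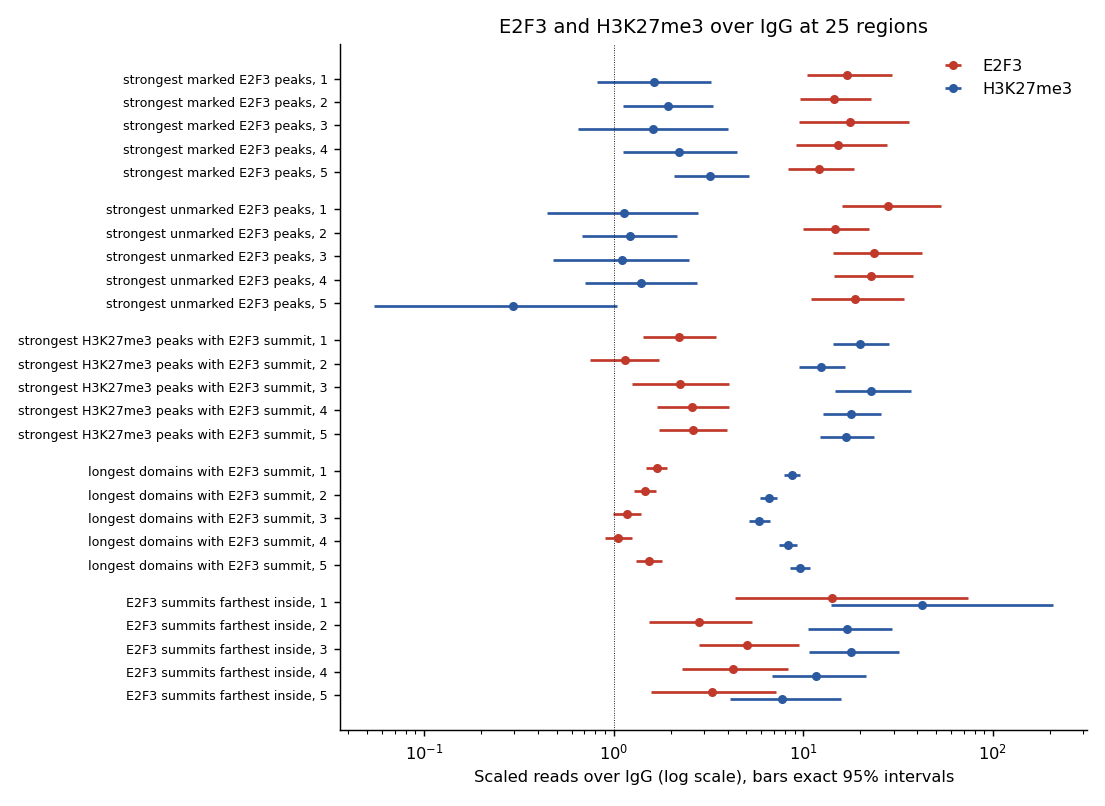
E2F3 and H3K27me3 reads over IgG (scaled ratio, log scale) at 25 regions in 5 groups, numbered by rank within each group, with exact 95% intervals. The strongest marked E2F3 peaks have E2F3 at 12.2 to 17.6 times IgG and H3K27me3 at 1.61 to 3.24 times, and the strongest H3K27me3 peaks have E2F3 at 1.14 to 2.61 times and H3K27me3 at 12.4 to 22.8 times. This contrast follows in part from ranking the groups by different signals. Reads were counted over the E2F3 peak, the H3K27me3 peak or the domain, according to the group.

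Most H3K27me3 domains held no E2F3 summit, and those that did usually held 1. Of 9429 domains, 1647 held a summit (17.5%), 1541 of them 1 and 106 of them 2 or more. Of the 8889 E2F3 summits, 1774 were inside a domain, 22 of these in a stretch between its peaks. The share of domains with a summit was 7.34% (6.65 to 8.08) at up to 1 kb, 34.3% (31.9 to 36.7) at 1 to 2 kb, 24.9% (22.7 to 27.1) at 2 to 5 kb, 27.1% (23.9 to 30.4) at 5 to 10 kb and 37.2% (32.8 to 41.7) above 10 kb. Per length, gaps included, the order was another. Domains of 1 to 2 kb held 247 summits per Mb, those of up to 1 kb 144, those of 2 to 5 kb 83.6, those of 5 to 10 kb 43.3 and those above 10 kb 27.1.

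The position of E2F3 summits in a domain depended on its length. In domains of up to 1 kb 32.6% of the 384 summits lay in the innermost of 5 equal classes from edge to middle, and 3.91% in the outermost. In domains of 1 to 2 kb these shares were 30.8% and 3.17%, so summits lay towards the middle of short domains. Longer domains hold gaps between their peaks, where few summits lie, while their ends are in a peak by construction. For these, summits in peaks were counted per Mb of peak. At 2 to 5 kb the innermost class held 170 per Mb (134 to 211) and the outermost 53.4 (39.6 to 70.3). At 5 to 10 kb the innermost held 69.1 (44.7 to 102) and the outermost 68.6 (52.1 to 88.7), with 124.7 (91.7 to 166) in the class midway. Above 10 kb the innermost held 61.7 (45.8 to 81.3) and the outermost 49.1 (36.2 to 65.1), so no preference for edge or middle was detectable at these counts.

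Pooled over all lengths, domain edges did not hold many more E2F3 summits than their share of the mark. Over all domains 50.6% of the summits (48.3 to 53.0) lay within 500 bp of an edge, where 29.5% of the domain length lies. Most of that excess went with the gaps, since 51.3% of the 1752 summits in peaks and 47.1% of the peak length lay there. Within 250 bp of an edge it was 18.5% of these summits and 30.9% of peak length. Where peaks were joined across up to 1 kb it was 56.5% and 60.2%, and across up to 10 kb 49.0% and 41.3%. Over the whole domain length the shares were 18.3% and 18.8% at 250 bp, 56.4% and 55.3% with gaps of up to 1 kb, 47.8% and 18.5% with up to 10 kb, and 49.7% and 33.8% for peaks of score 100 or more. Domains of up to 1 kb lie wholly within 500 bp of an edge, so the place of their 384 summits was fixed. At 1 to 2 kb 62.1% of summits and 70.2% of domain length lay there, and at 2 to 5 kb 29.6% and 30.9%. At 5 to 10 kb it was 18.2% and 14.4%, and above 10 kb 9.57% and 5.55%. The pooled shares are thus a description alone.

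E2F3 summits were denser just inside domain edges than just outside. At domains over 5 kb there were 51.8 E2F3 summits per Mb (39.8 to 66.2) in the first 500 bp inside the edge, and 4.11 per Mb (1.33 to 9.59) in the first 500 bp outside. Further in there were 48.5 per Mb at 500 to 1000 bp, 36.6 at 1 to 2 kb, 27.2 at 2 to 5 kb and 28.2 beyond 5 kb. This decline follows in part from the joining rule, since peaks filled 93% of the first band and 47.8% of the last. Per Mb of peak there were 55.6 summits (42.7 to 71.1) in the first 500 bp, 99.5 (75.5 to 129) at 500 to 1000 bp, 93 (74.4 to 115) at 1 to 2 kb, 63.9 (53.2 to 76.1) at 2 to 5 kb and 58.0 (47.4 to 70.2) beyond 5 kb. By these values the first 500 bp of long domains did not stand above their depth. Edges come from the H3K27me3 peak list, and the part of the rise in IgG at E2F3 sites in their place was not tested. Over all domains the bands outside held 4.96 summits per Mb at 5 to 10 kb, 3.41 at 2 to 5 kb, 3.92 at 1 to 2 kb, 6.89 at 500 to 1000 bp and 10.3 (8.34 to 12.6) within 500 bp. The median score was 75.3 for the 107 summits deeper than 5 kb, 99 for the 898 within 500 bp inside, and 165 for the 97 within 500 bp outside.

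**Figure D5:**
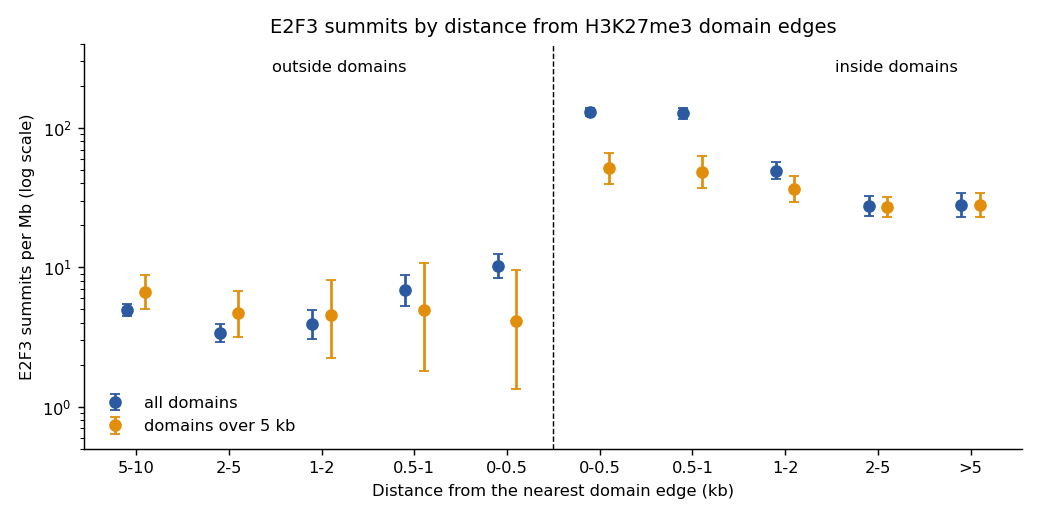
E2F3 summits per Mb (log scale) by distance from the nearest H3K27me3 domain edge in kb, outside domains on the left of the dashed line and inside on the right, for all domains and for domains over 5 kb. Bars are exact Poisson 95% intervals, and lengths inside include the gaps between joined peaks. At domains over 5 kb the value inside the edge is 51.8 per Mb, against 4.11 just outside.

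At the 211 summits within 2 kb of the edge of a domain over 5 kb the mark was set out by side, which the domain edge itself defines. On the inner side H3K27me3 reads were 1.26 times (1.21 to 1.30) those on the outer side at 101 to 500 bp, 2.12 times (2.03 to 2.21) at 1001 to 2000 bp and 4.37 times (4.22 to 4.52) at 2001 to 5000 bp. More of the mark on the inner side is fixed by that definition, since the outer bands reach past the edge, that at 1001 to 2000 bp wholly so for the 122 summits within 1 kb of it. These values are a description alone. IgG had 1.07 (0.982 to 1.16), 1.22 (1.13 to 1.31) and 1.43 (1.36 to 1.5). Unmarked E2F3 summits were mostly far from the mark. Their median distance to a domain was 74614 bp, 61.0% lay more than 50 kb away, 1.22% lay within 1 kb outside an edge, and 18 lay inside a domain between its peaks.

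E2F3 summits lay close to the summit of the H3K27me3 peak that held them. Of the 1752 summits inside such a peak 40.6% (38.3 to 42.9) were within 100 bp of its summit, where 13.6% of the length of those peaks lies, and the median distance was 147 bp. Within 500 bp it was 81.7% of summits and 57.7% of length. IgG was densest at these positions as well, and its part in the place of the H3K27me3 summit was not tested.

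Marked sites fell along a range of H3K27me3 peak lengths. Only 191 of the 1832 marked E2F3 peaks lay mainly on an H3K27me3 peak of up to 600 bp, although 8731 of the 17064 H3K27me3 peaks were that short. On peaks of 601 to 1500 bp there were 959, and on longer ones 682. H3K27me3 over IgG within 500 bp of the E2F3 summit was 3.14 (2.97 to 3.32) on the short, 5.75 (5.64 to 5.86) on the middle and 10.6 (10.3 to 10.8) on the long peaks. The E2f3-/- H3K27me3 library had 1.08 (0.994 to 1.16), 2.17 (2.12 to 2.22) and 4.13 (4.04 to 4.22) at the same sites. At E2F3 sites on the short peaks that library was thus not above IgG by its interval. It was above its own level at unmarked E2F3 summits, 0.314 times IgG (0.309 to 0.319). A value near IgG therefore does not show that the mark was absent there. The share of H3K27me3 peaks with an E2F3 peak was 2.23%, 15% and 32.1% in these 3 classes. Longer peaks have more room for an overlap, and per length they held 43.6, 156 and 149 E2F3 summits per Mb, so the long class did not exceed the middle one.

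HELLS was seen more often at marked than at unmarked E2F3 peaks. A HELLS peak overlapped 433 of the 1832 marked peaks (23.6%, 21.7 to 25.7) and 1211 of the 7057 unmarked ones (17.2%, 16.3 to 18.1). Marked peaks have lower E2F3 scores, and HELLS peaks are more frequent at high scores, so the classes were also compared within 4 equal classes of E2F3 score. From the lowest to the highest class the share was 12.9%, 18.1%, 31.9% and 50.9% at marked peaks, against 4.90%, 8.43%, 17.2% and 34.3% at unmarked ones. HELLS reads over IgG were 2.13 (2.09 to 2.18) at marked and 1.91 (1.89 to 1.93) at unmarked summits. The E2F3 antibody in E2f3-/- cells had 2.12 (2.07 to 2.16) and 1.88 (1.86 to 1.90) in the same windows. This difference in reads was thus not particular to HELLS. The false discovery rate in the authors' deposited table was above 5% for 2196 of the 2489 HELLS peaks. With peaks of score 100 or more the shares were 8.49% at marked and 5.16% at unmarked peaks. In the E2f3-/- HELLS list 47.5% of marked (45.2 to 49.9) and 40.8% of unmarked peaks (39.7 to 42.0) had a peak.

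The E2F3 antibody signal was lower in E2f3-/- cells at both classes of site, and less so at marked ones. The sites, their summits and their scores come from the wild-type E2F3 list, so ratios below 1 are favoured by that choice. E2f3-/- reads over wild-type reads were 0.395 (0.389 to 0.401) at marked and 0.272 (0.270 to 0.275) at unmarked summits. The order held in each of the 4 classes of score, from 0.522 (0.506 to 0.539) at marked and 0.417 (0.408 to 0.426) at unmarked peaks of the lowest class to 0.240 (0.230 to 0.249) and 0.192 (0.189 to 0.195) in the highest. Among marked peaks the ratio was 0.339 (0.327 to 0.351) where the mark was lowest and 0.513 (0.493 to 0.533) where it was highest. The antibody in E2f3-/- cells was 2.12 times IgG at marked and 1.88 times at unmarked summits, against 5.36 and 6.91 times in wild-type cells. In these sums marked summits had the lower wild-type and the higher E2f3-/- value. The ratio also differed among peaks of like score, so how far each library made up the difference was not tested. An E2f3-/- peak of this antibody overlapped 28.3% of marked and 28.2% of unmarked peaks, in a list where 1140 of 3314 peaks had a false discovery rate above 5%. Signal above IgG thus remained with this antibody in the library labelled E2f3-/-.

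The E2f3-/- H3K27me3 list held 806 of the 1832 marked peaks (44.0%, 41.7 to 46.3) and 11 of the 7057 unmarked ones. The false discovery rate in the authors' deposited table was above 5% for 4621 of the 7079 peaks of that list. The peaks compared next come from the wild-type H3K27me3 list, so ratios below 1 are favoured by that choice. At H3K27me3 peaks with an E2F3 peak, E2f3-/- over wild-type H3K27me3 reads were 0.381 (0.378 to 0.385), and at those without 0.403 (0.401 to 0.405). On peaks longer than 1500 bp these values were 0.388 (0.384 to 0.392) and 0.388 (0.385 to 0.391), which do not differ beyond counting error. On peaks of up to 600 bp they were 0.275 (0.253 to 0.298) and 0.412 (0.406 to 0.417). Within 500 bp of the 7057 unmarked E2F3 summits, where no mark was listed, the same ratio was 0.279 (0.275 to 0.284). The low value on short peaks with E2F3 was thus also seen at E2F3 sites without a listed mark, and its cause was not tested.

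By the wild-type H3K27me3 list, the X chromosome stood apart. There 79 of 176 E2F3 peaks were marked (44.9%, 37.4 to 52.6), against 20.1% (19.3 to 21.0) on the autosomes, whose shares ran from 14.2% on chromosome 16 to 24.9% on chromosome 15. By the E2f3-/- H3K27me3 list the shares of E2F3 peaks with a peak were closer, at 11.4% on X and 9.15% on the autosomes. On X the median E2F3 score was 98.5 at marked and 95.1 at unmarked peaks, while on the autosomes it was 96.8 and 143. H3K27me3 over IgG was 5.43 (5.02 to 5.86) at marked and 2.02 (1.85 to 2.20) at unmarked X summits, against 7.63 and 1.12 on the autosomes. Outside peaks H3K27me3 over IgG was 1.01 on X in wild-type cells and 1.56 in E2f3-/- cells, and X summits had a mean of 5.68 IgG reads, against 9.54 on the autosomes. The part of these differences in the X result was not tested.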

How the data were processed

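Reads were sequenced from a single end after 22 PCR cycles, and 36 nucleotides were read, per the labels' protocols. Each line of a deposited read file is an aligned read, and the build is mm9 according to the submitters' processing notes. The aligner is not given in the sources used here. The authors called peaks per library with MACS 1.4.0beta at a p cutoff of 1e-05 against an IgG control of the same genotype, per the file headers. The authors' deposited peak tables give a count of tags, a score, a fold enrichment (the ratio of tags to those expected nearby) and, in percent, a false discovery rate. These were used to describe, rank or filter peaks within a list. The deposited IgG files of both genotypes were identical, with 7223444 lines, while the headers name a wild-type control of 3444066 tags and an E2f3-/- control of 3791438 tags. The lines are close in number to the sum of both, and whether the file pools them was not tested. IgG here is therefore 1 library without a genotype of its own and not the control that MACS used.

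From the deposited reads, 1 read per position and strand was kept, moved 60 bp towards the fragment centre and counted. Libraries were scaled by distinct reads outside the 27092 peak regions of the series (21.5 Mb). Shares carry exact Clopper-Pearson intervals, ratios exact conditional binomial intervals, densities exact Poisson intervals, and the ratio of 2 ratios a normal interval on the log scale. The number of PCR copies left is unknown, so intervals cover counting error only. Of the E2F3 summits 13.7% lay within 5 kb of another, so their outer distance bands share reads. For log2 ratios in the plot of both signals, counts were raised by a pseudocount of 0.5. Named regions were, on placed chromosomes, the 5 E2F3 peaks of highest score with and without the mark, the 5 H3K27me3 peaks of highest score with an E2F3 summit, the 5 longest domains with a summit and the 5 summits farthest inside, with ties by chromosome name and start. The members and lists were chosen with earlier results of these data known. Python 3.11.15, numpy 2.4.6, pandas 2.3.3, scipy 1.17.1 and matplotlib 3.10.9 were used.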

Additional observations from a re-analysis of the deposited data

How the results depend on the processing

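No paired analysis was possible because each group had 1 library and no replicate numbers. Of 74 alternative values for 13 results, 33 stayed within the interval of the value reported (for the count of regions, within 1.5 times), 40 moved beyond it and 1 changed direction. That was H3K27me3 over IgG at unmarked summits, 0.976 when scaled by all distinct reads. The intervals are narrow because counts are large, so small moves pass them.

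With peaks of score 100 or more, 591 regions had both peaks, 11.1% of E2F3 peaks were marked, 8.27% of H3K27me3 peaks overlapped E2F3, H3K27me3 over IgG was 7.86 at marked and 1.20 at unmarked summits, its summit over flanks 3.84, the ratio of E2F3 at marked to unmarked peaks 0.810, the HELLS shares 8.49% and 5.16%, and E2f3-/- over wild-type E2F3 0.345 and 0.247. With the summit required inside the H3K27me3 peak the share was 19.7%, H3K27me3 over IgG 7.80 and 1.13, summit over flanks 4.48 and the E2F3 ratio 0.758. Without E2F3 peaks that overlapped an E2f3-/- peak, the share of H3K27me3 peaks was 7.54%, H3K27me3 over IgG 7.28 and 1.07, summit over flanks 4.59, the edge share 53.0%, windows called 23.7%, and E2f3-/- over wild-type 0.360 and 0.244. Without the 10% of summits with most IgG reads, H3K27me3 over IgG was 7.86 and 1.15, summit over flanks 4.3, the E2F3 ratio 0.753 and E2f3-/- over wild-type 0.265 at unmarked peaks. Scaled by all distinct reads, H3K27me3 over IgG was 6.58 at marked summits, windows called 21.2%, and E2f3-/- over wild-type 0.422 and 0.291. A shift of 100 bp gave a summit over flanks of 4.31. The edge share was 56.4% with gaps of up to 1 kb, 47.8% with up to 10 kb and 18.3% within 250 bp.

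Counts per Mb of peak in domains were added after seeing the data. Also chosen then, the E2F3 ratio of marked to unmarked peaks was 0.753 with H3K27me3 peaks of score 100 or more, 0.822 where marked meant called over IgG in 1 kb, and 0.742 for peaks also in the E2f3-/- H3K27me3 list. It stayed below 1 in all 11 alternatives run. At an IgG median of 9 reads per summit, a single window shows only large differences.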

Other observations

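The wild-type H3K27me3 library has a pair of places with very many reads, which hold 1 peak on chromosome X and 10 peaks on chromosome 2. None of them overlapped an E2F3 peak, so no E2F3 peak was called marked through them. Whether their reads reach the outer distance bands of a marked summit was not tested.

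Marked sites were chosen by the wild-type H3K27me3 list, which favours a higher wild-type value at them. The E2f3-/- H3K27me3 library had 2.91 times IgG (2.86 to 2.95) within 500 bp of marked E2F3 summits, against 7.57 in wild-type cells. At unmarked summits it had 0.314 (0.309 to 0.319), against 1.12. Its summit over flank ratio at unmarked summits was 2.06 (2.00 to 2.13), against 3.89 (3.83 to 3.95) in wild-type cells and 3.31 (3.27 to 3.35) for IgG. The wild-type and E2f3-/- H3K27me3 libraries thus differed in how far reads gathered at E2F3 sites without a listed mark, and the cause was not tested.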
